A study of Mus musculus with 8 samples.

Results

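The kinesin family genes of mouse testis are described here, taken as every gene of the deposited table whose symbol is Kif followed by a number and at most a letter and further digits. The table held 38 such genes among 38163, and 34 of them reached 1 FPKM (a fragment count scaled by transcript length and library depth) in at least 2 of the 8 libraries and were tested among 16702 genes. They were sorted by textbook role into 13 spindle kinesins (12 tested), 9 ciliary kinesins (9 tested), 12 transport kinesins (12 tested) and 4 others (1 tested). Poly(A) RNA of whole testis was sequenced from 4 groups of 2 libraries each: Alkbh5-null males at postnatal day 18 (KO P18), wild-type males at day 18 (WT P18), Alkbh5-null males at day 12 (KO P12) and wild-type males at day 12 (WT P12). ALKBH5 is an enzyme that removes the N6-methyladenosine mark from RNA, and the series asks what it does in spermatogenesis, at P12, when leptotene and zygotene spermatocytes prevail, and at P18, when pachytene and diplotene ones do. The null allele's construction, the strain, and whether a library holds 1 animal or several are not given in the sources used here, so p-values measure only the spread between these libraries, which may be technical.

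Kinesins are motor proteins that use ATP to walk along microtubules or to take microtubules apart at their ends. One set builds the mitotic and meiotic spindle and divides the cell, another carries material into cilia and flagella or works inside the axoneme, and others move vesicles, organelles and RNA through the cytoplasm. Seminiferous tubules hold all these uses at once: spermatogonia divide by mitosis, spermatocytes go through meiosis and prepare transcripts of the future sperm tail, and Sertoli and interstitial cells depend on cytoplasmic transport.

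Total counts lay between 58417668 and 71537841 per library, and the 38 kinesins together took 0.217% to 0.271% of them. The targeted gene checked the labels first. Alkbh5 had 0.0564 and 0.0218 FPKM in KO P12, against 10.2 and 17.8 FPKM in WT P12 (log2 fold change -8.37 ± 0.42 SE, n = 2 each, edgeR adjusted p = 0.00466). At P18 its level was 17.9 and 0.155 FPKM under the label KO (replicates 1 and 2, in that order as everywhere), against 0.00985 and 9.07 FPKM under the label WT. The library labelled KO P18 replicate 1 (7800 counts of Alkbh5) and the library labelled WT P18 replicate 1 (4 counts) therefore go against their labels, and every direction between the P18 groups is that of the labels only. Counts of P18 calls are also given without these 2 libraries. Markers of cell types differed between libraries too: 10 pachytene and diplotene genes summed to 1475 and 152 FPKM in KO P18 as labelled, 141 and 1124 FPKM in WT P18, 45.8 and 54.3 FPKM in KO P12 and 98.3 and 143 FPKM in WT P12. 10 Sertoli cell genes summed to 782 and 1929 FPKM in KO P18, 2095 and 1076 FPKM in WT P18, 2246 and 2022 FPKM in KO P12 and 1859 and 1674 FPKM in WT P12, and none of them was at 0 in any library. 8 hepatocyte genes, which have no place in testis, summed to 219 and 208 FPKM in KO P18 and to at most 3.503 FPKM in the other 6 libraries, and their part in any kinesin value was not tested.

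The sequences before the start sites of 5 kinesins are shown because their levels carry the comparisons below: Kif9 and Kif24 of the cilium, Kif15 and Kif11 of the spindle, and Kif5c of transport. Kif11 was added outside the naming rule, after its values were seen, as the motor that pushes spindle poles apart. Each is the 250 bases before the RefSeq start site on GRCm38.p6, written 5′ to 3′ along the gene. The capitals mark either the core of the cell cycle homology region (TTTGAA or TTCGAA on either strand), an element known from promoters of genes that peak in G2 and M phase, or a core that MYB proteins bind (TAACNG or CAACNG on either strand). Kif9 lies at chr9:110476708-110476957 (plus strand), Kif24 at chr4:41464849-41465098 (minus strand), Kif15 at chr9:122950831-122951080 (plus strand), Kif11 at chr19:37376132-37376381 (plus strand) and Kif5c at chr2:49619036-49619285 (plus strand).
Kif9: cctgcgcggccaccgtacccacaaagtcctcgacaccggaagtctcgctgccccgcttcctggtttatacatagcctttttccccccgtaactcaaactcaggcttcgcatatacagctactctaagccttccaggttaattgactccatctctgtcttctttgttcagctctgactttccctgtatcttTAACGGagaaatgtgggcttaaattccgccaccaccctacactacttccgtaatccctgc
Kif24: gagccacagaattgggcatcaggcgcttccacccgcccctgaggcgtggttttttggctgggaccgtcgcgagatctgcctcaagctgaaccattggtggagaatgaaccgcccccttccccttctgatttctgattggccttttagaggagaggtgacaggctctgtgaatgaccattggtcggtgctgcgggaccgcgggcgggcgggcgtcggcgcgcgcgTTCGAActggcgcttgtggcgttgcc
Kif15: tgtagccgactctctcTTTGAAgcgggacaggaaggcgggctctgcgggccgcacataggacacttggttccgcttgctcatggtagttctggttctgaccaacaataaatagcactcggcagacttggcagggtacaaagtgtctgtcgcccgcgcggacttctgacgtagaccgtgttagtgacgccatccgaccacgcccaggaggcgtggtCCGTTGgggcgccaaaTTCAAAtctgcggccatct
Kif11: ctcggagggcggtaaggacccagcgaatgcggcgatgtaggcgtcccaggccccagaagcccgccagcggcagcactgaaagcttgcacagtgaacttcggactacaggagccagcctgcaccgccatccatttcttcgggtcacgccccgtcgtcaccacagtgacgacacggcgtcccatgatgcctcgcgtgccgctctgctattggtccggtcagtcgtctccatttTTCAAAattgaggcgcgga
Kif5c: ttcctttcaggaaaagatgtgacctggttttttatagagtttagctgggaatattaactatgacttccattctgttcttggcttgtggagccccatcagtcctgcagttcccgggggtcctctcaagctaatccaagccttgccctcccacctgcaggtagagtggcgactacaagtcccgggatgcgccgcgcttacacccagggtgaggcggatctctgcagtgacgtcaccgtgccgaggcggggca
Of the 38 kinesins, 31 had a RefSeq promoter entry. The cell cycle core stood in 5 of 12 spindle kinesins (Kif11, Kif14, Kif15, Kif22 and Kif2c), 2 of 8 ciliary kinesins (Kif24 and Kif27) and 1 of 8 transport kinesins (Kif1a), against 19.6% of all 27025 genes with an entry, counting any of a gene's listed start sites. The MYB core stood in 4 of 12, 5 of 8 and 4 of 8 genes of those classes, against 46.5% of all genes. The X-box, the full palindrome that RFX factors bind, was in 0 of the 31 kinesins and 0.444% of all genes. A part of it, GTTGCCA on either strand, which can lie inside a full X-box, was in Kif18a, Kif23, Kif9 (before a later start site than the one shown) and Kif16b, against 4.19% of all genes. In the sequences shown, where no 2 matches overlap, the MYB core of Kif9 begins 60 bases before the start site, the cell cycle core of Kif24 begins 26 bases before it, and the cell cycle cores of Kif15 and Kif11 that lie nearest to the start both begin 19 bases before it. The promoter of Kif5c had none of these letters. No measurement of binding was made, and a match is a description of the letters only.

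Levels of the 34 tested kinesins, as means over all 8 libraries, ran from 1.45 FPKM (Kif19a) to 29.6 FPKM (Kif20a). Spindle kinesins had the highest class median of these means (9.33 FPKM, from Kif14 at 2.2 to Kif20a at 29.6), followed by transport kinesins (6.70 FPKM, from Kif13a at 3.02 to Kif5b at 24.9) and ciliary kinesins (5.48 FPKM, from Kif19a at 1.45 to Kif3a at 23.7). Within single libraries the ciliary median was above the transport median in KO P18 replicate 1 (9.51 against 5.503 FPKM) and WT P18 replicate 2 (8.95 against 5.19 FPKM), and below it in the other 6. The order of neighbours is loose: Kif2c, Kif2a and Kif11 averaged 14.4, 14.1 and 14.0 FPKM, within the spread of each over the libraries. 4 members stayed below the filter. Kif12, Kif26b and Kif28 were at 0.118 FPKM or less in every library, and Kif2b, a spindle kinesin of the microtubule-depolymerising kinesin-13 group, reached 1.54 FPKM in KO P18 replicate 1 and lay between 0.107 and 0.246 FPKM in the other 7. At P12 it had 0.107 and 0.191 FPKM in KO, against 0.1499 and 0.156 FPKM in WT. Just inside the filter was Kif19a, at or above 1 FPKM only in 2 libraries, KO P18 replicate 1 and WT P18 replicate 2. Just outside was Kif2b, with 1. The Gene Ontology terms in the table, which did not set the classes, held the word cilium for 6 of 9 ciliary kinesins and 0 of 13 spindle and 0 of 12 transport ones, and the word spindle for 11 of 13 spindle kinesins, 1 of 9 ciliary ones (Kif3b) and 0 of 12 transport ones.

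**Figure D1:**
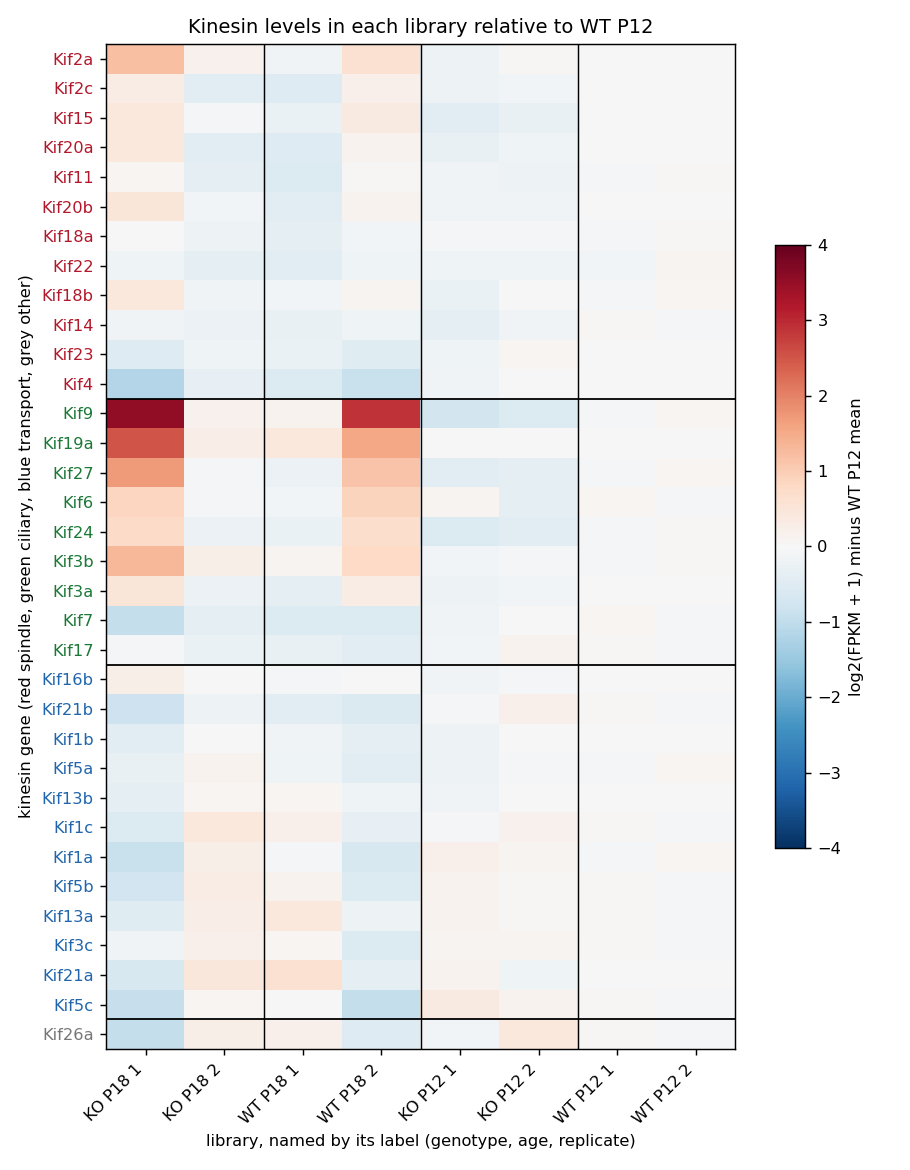
Colour shows log2(FPKM + 1) of each tested kinesin (rows, 34 genes in 4 classes) in each library (columns, named by label and replicate) minus the mean of the 2 WT P12 libraries. KO P18 replicate 1 and WT P18 replicate 2 show the strongest colours, Kif9 and Kif19a being reddest, while most transport kinesins are blue in these same columns.

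The first comparison asks what loss of Alkbh5 does to kinesin transcripts at P12. No kinesin passed the test: edgeR's quasi-likelihood test on the 4 P12 libraries called 0 of 34 kinesins at an adjusted p under 0.05, where 0.0539% of all tested genes (9 of 16702) were called, and limma called 0 of 34 (0% of all genes). At an unadjusted p under 0.05 there were 8 of 34 kinesins, against 13.6% of all genes. DESeq2 called 4 of 34 lower (Kif9, Kif24, Kif27 and Kif15) and 0 higher, against 3.98% of all genes called by it. The classes took different signs. All 12 spindle kinesins and 8 of 9 ciliary kinesins had a log2 fold change below 0, with medians of -0.15 and -0.15. Of the transport kinesins 8 of 12 were above 0, with a median of 0.10. The median of all 16702 tested genes was 0.01, with 8657 above 0 and 7884 below. Single libraries moved these tallies. Without KO P12 replicate 2 the transport kinesins stood at 6 above and 6 below 0, with a median of 0.053. Without KO P12 replicate 1, 9 of 12 spindle and 6 of 9 ciliary kinesins were below 0 and the transport median was 0.058, and without WT P12 replicate 2 the medians were -0.091 for spindle and 0.055 for transport kinesins. Both KO libraries lay below both WT libraries for 15 of 34 kinesins, against 24% of all tested genes, and above them for 4 of 34, against 21.3%. The 15 comprise 7 of 12 spindle, 5 of 9 ciliary and 3 of 12 transport kinesins, and all 4 that lay above are transport kinesins. No test of a difference between the classes was made. In whole testis, fewer cells of a type and less RNA per cell cannot be told apart.

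**Figure D2:**
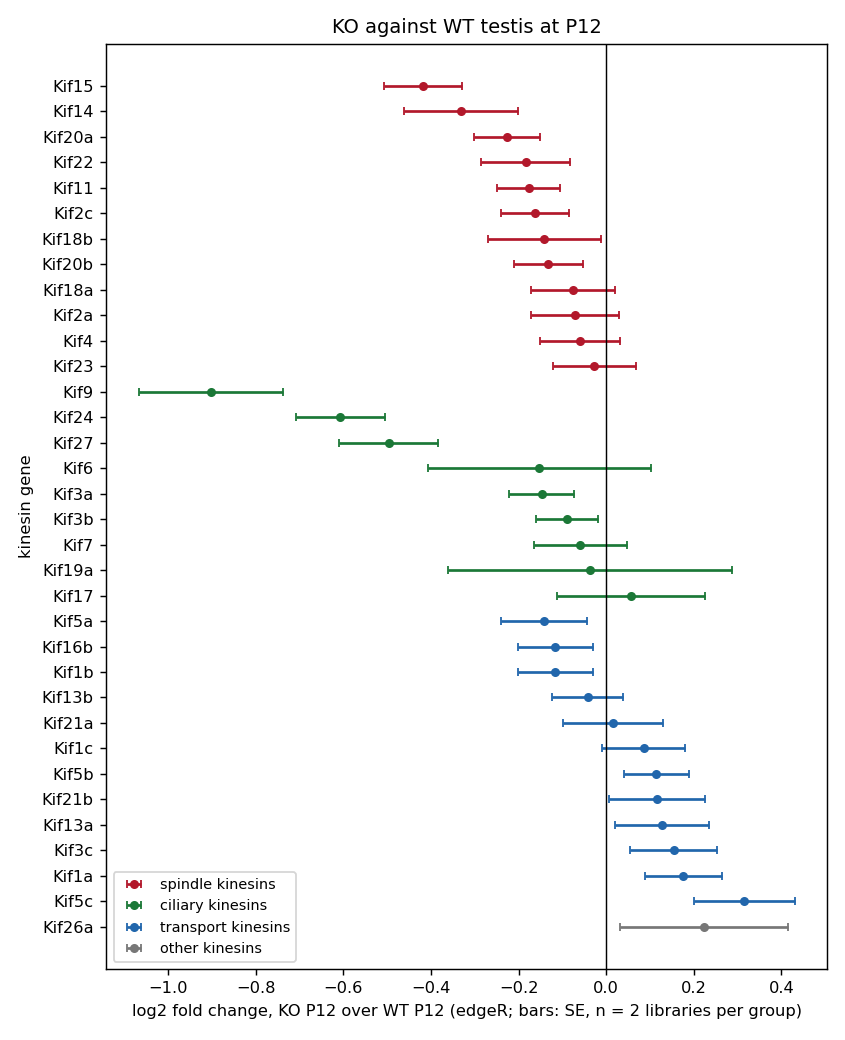
Each point is the log2 fold change of a tested kinesin in KO P12 over WT P12 from edgeR, and its bar is the SE (n = 2 libraries per group). Kif9, Kif24 and Kif27 lie farthest left, at -0.90, -0.61 and -0.50, and Kif5c farthest right, at 0.32.

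Among the ciliary kinesins, Kif9, a motor of the axoneme known from mouse sperm flagella, had 1.53 and 1.903 FPKM in KO P12 and 3.06 and 3.44 FPKM in WT P12. Kif24, a centriolar kinesin known from human cells to restrain cilium assembly, had 3.17 and 3.53 FPKM in KO P12, against 4.91 and 5.41 FPKM in WT P12. Kif27, tied in mice to motile cilia, had 3.11 and 3.40 FPKM in KO P12, against 4.38 and 4.89 FPKM in WT P12. In all 3 the groups did not overlap, and the gap between groups was wider than the gap between the libraries of a group. The log2 fold changes were -0.90 ± 0.16 (SE) for Kif9, -0.61 ± 0.10 for Kif24 and -0.50 ± 0.11 for Kif27, with n = 2 libraries per group throughout, and none passed in edgeR without a replicate block (adjusted p = 0.103, 0.0875 and 0.145). Kif3a and Kif3b, the paired motor subunits of kinesin-2 that carry intraflagellar transport trains outward, differed less. Kif3a had 20.5 and 21.8 FPKM in KO P12, against 23.5 and 23.9 FPKM in WT P12 (log2 -0.15 ± 0.07). Kif3b had 15.9 and 16.0 FPKM in KO P12, against 16.7 and 17.5 FPKM in WT P12 (-0.09 ± 0.07). Both pairs were separated, though by small margins. Of the remaining members, Kif6 (-0.15 ± 0.26), known from mouse ependymal cilia, Kif7 (-0.06 ± 0.11), which acts in Hedgehog signalling at the cilium tip, Kif19a (-0.04 ± 0.32), which limits cilium length in mice, and Kif17 (0.06 ± 0.17), a kinesin-2 motor, overlapped between the groups. Kif6 had 2.01 and 1.195 FPKM in KO P12, against 1.95 and 1.66 FPKM in WT P12. Reads of Kif7 are uncertain where its exons share 19.1% of their bases with 9330171B17Rik on the opposite strand, as are 6.37% of those of Kif27 with Gm26555.

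Among the spindle kinesins, Kif15, which helps to keep spindle poles apart, had 3.33 and 3.71 FPKM in KO P12, against 4.73 and 4.76 FPKM in WT P12. Its log2 fold change was -0.42 ± 0.09 (edgeR adjusted p = 0.128). Kif20a, which brings the chromosomal passenger complex to the midzone for cell division, had 25.2 and 27.8 FPKM in KO P12, against 30.6 and 32.0 FPKM in WT P12 (-0.23 ± 0.08, adjusted p = 0.268). Both genes were lower in each KO library than in each WT library. Kif11, the bipolar motor that pushes spindle poles apart, had 13.8 and 13.2 FPKM in KO P12, against 15.1 and 15.8 FPKM in WT P12. Kif2c, a depolymerase at centromeres, had 13.0 and 13.8 FPKM in KO P12, against 15.0 and 15.4 FPKM in WT P12. These 2 pairs were also separated, with log2 fold changes of -0.18 ± 0.07 and -0.16 ± 0.08. Kif2a, a depolymerase at spindle poles that neurons also use, had 9.76 and 11.8 FPKM in KO P12 and 11.3 and 11.5 FPKM in WT P12, which overlap. The other spindle members, Kif14 (-0.33), Kif22 (-0.18), Kif18b (-0.14), Kif20b (-0.13), Kif18a (-0.08), Kif4 (-0.06) and Kif23 (-0.03), act in cytokinesis, on chromosome arms or at microtubule ends. None of them passed the test. Reads of Kif20a are uncertain where its exons share 29.3% of their bases with Cdc23 on the opposite strand, since the use of strand in counting is not stated, and 19.2% of those of Kif2a are shared with Dimt1.

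Among the transport kinesins, 5 members stood highest by p on the side above 0. Kif5c, a heavy chain of conventional kinesin best known from neurons, had 8.49 and 7.14 FPKM in KO P12, against 6.64 and 6.05 FPKM in WT P12. Kif1a, which carries synaptic vesicle precursors in neurons, had 10.6 and 9.84 FPKM in KO P12, against 8.64 and 9.67 FPKM in WT P12. Kif5b, the widely expressed heavy chain, had 28.4 and 26.9 FPKM in KO P12, against 26.5 and 24.98 FPKM in WT P12. The groups did not overlap in these 3 genes, but no value passed the test: Kif5c had a log2 fold change of 0.32 ± 0.11 (edgeR adjusted p = 0.310), Kif1a of 0.18 ± 0.09 (adjusted p = 0.441) and Kif5b of 0.11 ± 0.07 (adjusted p = 0.545). Kif3c, a partner of Kif3a in neurons, had 3.48 and 3.49 FPKM in KO P12, against 3.26 and 3.06 FPKM in WT P12 (0.15 ± 0.10), with 35.3% of its exon bases shared with 1110002L01Rik on the opposite strand. Kif13a, a motor of endosomal recycling, had 3.29 and 3.002 FPKM in KO P12, against 3.01 and 2.81 FPKM in WT P12 (0.13 ± 0.11), and these overlap. On the other side, Kif5a (-0.14), Kif16b (-0.12) and Kif1b (-0.12) were lower in both KO libraries than in both WT libraries. 2 abundant members overlapped between the groups. Kif21a, which curbs microtubule growth at the cell cortex, had 25.7 and 20.5 FPKM in KO P12, against 22.9 and 23.2 FPKM in WT P12 (0.02 ± 0.11). Kif1c, which moves integrin-bearing vesicles, had 10.8 and 12.8 FPKM in KO P12, against 11.6 and 10.9 FPKM in WT P12 (0.09 ± 0.09). Kif26a, which lacks motor activity, acts in signalling of mouse enteric neurons and stands outside the 3 classes, had 4.43 and 6.94 FPKM in KO P12, against 5.06 and 4.76 FPKM in WT P12 (0.22 ± 0.19).

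Some marker lists also differed between the groups at P12. 8 genes of early meiotic prophase summed to 283 and 370 FPKM in KO P12, against 473 and 526 FPKM in WT P12, and 5 proliferation genes to 180 and 199 FPKM in KO P12, against 220 and 226 FPKM in WT P12. These sums did not overlap between the groups, nor did the Sertoli sums (higher in KO P12) or the pachytene sums (lower in KO P12) given above. The 7 Leydig genes summed to 149 and 108 FPKM in KO P12, against 101 and 97.8 FPKM in WT P12, with 1 of 7 higher in both KO libraries. The low spermatid sums (higher in KO P12) and hepatocyte sums (lower in KO P12) did not overlap either. Peritubular and stromal, endothelial and macrophage sums overlapped. In the proliferation list, 3 of 5 genes were lower in both KO libraries, and 1 of 5 had a log2 fold change above 0. The 8 spermatogonia genes summed to 207 and 239 FPKM in KO P12, against 227 and 218 FPKM in WT P12, and these sums overlap. Of the pachytene list only Pgk2 was at 0 in any library, and no gene of the prophase or proliferation lists was. The part of cell makeup in the kinesin values was not tested.

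The second comparison repeats the question at P18 and rests on labels that Alkbh5 contradicts in 1 of the 2 libraries of each group. As labelled, edgeR called 0 of 34 kinesins between KO P18 and WT P18, where it called 0% of all genes, with 0 of 34 at an unadjusted p under 0.05 (1.13% of all genes). DESeq2 called 0 of 34 (0.455% of all genes) and limma called 0 of 34 (0.162%). Only Kif17 and Kif16b separated the labels, both higher in KO P18. Kif17 had 2.07 and 1.68 FPKM in KO P18, against 1.63 and 1.38 FPKM in WT P18, and Kif16b, a motor of early endosomes, had 5.82 and 4.90 FPKM in KO P18, against 4.69 and 4.83 FPKM in WT P18. That is 2 of 34 higher and 0 of 34 lower, where 3.38% and 6.71% of all genes separated the labels in these directions. The larger difference lay inside each label. Between the libraries labelled KO P18, replicate 1 was over 2-fold above replicate 2 in 7 of 34 kinesins (16.5% of all genes) and over 2-fold below it in 8 of 34 (20% of all genes). Between those labelled WT P18, replicate 2 was over 2-fold above replicate 1 in 5 of 34 (15%) and over 2-fold below it in 2 of 34 (5.8%), all on FPKM + 0.1. As a family the kinesins were therefore near the background, and the classes divided. Ciliary kinesins made up 6 of the 7 that were above in KO (Kif2a of the spindle being the other) and all 5 above in WT, while transport kinesins made up 6 of the 8 that were below in KO and both that were below in WT. The other 2 below in KO were Kif4 and Kif26a. Kif19a is in both ciliary counts, and it passed the FPKM filter only through KO P18 replicate 1 and WT P18 replicate 2. Its place in these counts was therefore favoured by the filter.

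**Figure D3:**
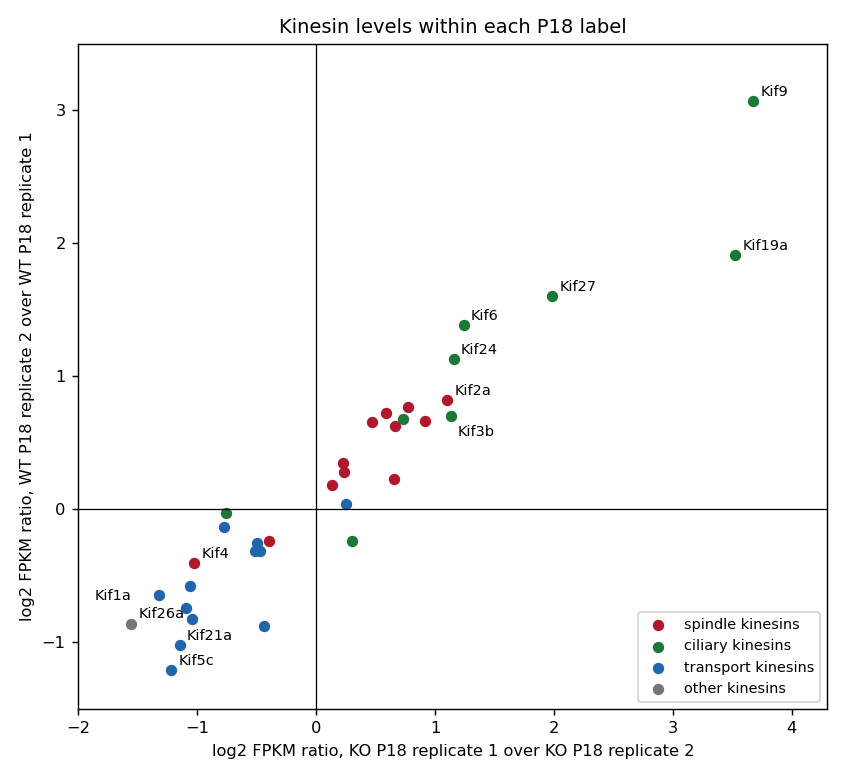
Each point is a tested kinesin, with the log2 FPKM ratio of KO P18 replicate 1 over replicate 2 on the x axis and of WT P18 replicate 2 over replicate 1 on the y axis. Ciliary kinesins reach the upper right, Kif9 at 3.68 and 3.07, and transport kinesins lie mostly in the lower left, Kif5c at -1.22 and -1.21.

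Kif9 had the widest range. It stood at 48.6 and 3.80 FPKM in KO P18 as labelled, against 3.65 and 30.6 FPKM in WT P18, so that KO replicate 1 was 12.8 times KO replicate 2 and WT replicate 2 was 8.38 times WT replicate 1. Kif19a had 6.41 and 0.558 FPKM in KO P18, against 0.730 and 2.75 FPKM in WT P18. Kif27 had 17.3 and 4.39 FPKM in KO P18, against 3.74 and 11.3 FPKM in WT P18. In each gene KO replicate 1 was highest and WT replicate 2 next, and the other 2 libraries lay close together far below. Kif24 had 9.51 and 4.26 FPKM in KO P18, against 4.09 and 8.95 FPKM in WT P18. Kif3b had 44.2 and 20.2 FPKM in KO P18, against 18.7 and 30.4 FPKM in WT P18. Kif3a had 33.2 and 20.0 FPKM in KO P18, against 18.1 and 29.0 FPKM in WT P18. These 3 genes showed the same order of libraries with smaller gaps. Kif6 had 4.06 and 1.72 FPKM in KO P18, against 1.62 and 4.23 FPKM in WT P18, with WT replicate 2 the highest. Kif7 went the other way in KO, with 3.01 and 5.10 FPKM, against 4.40 and 4.31 FPKM in WT P18.

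Most spindle kinesins took the same order of libraries with smaller gaps: 10 of 12 were higher in KO replicate 1 than in KO replicate 2 and higher in WT replicate 2 than in WT replicate 1. Of all 16702 tested genes, 5399 were higher in both ways. Kif2a had 27.6 and 12.9 FPKM in KO P18, against 10.2 and 18.01 FPKM in WT P18. Kif20a had 42.3 and 22.5 FPKM in KO P18, against 21.8 and 34.6 FPKM in WT P18. Kif2c had 18.9 and 11.1 FPKM in KO P18, against 10.3 and 17.5 FPKM in WT P18. All 3 were highest in KO replicate 1, as were 9 of the 12 spindle kinesins. Kif15 had 6.70 and 4.46 FPKM in KO P18, against 3.83 and 6.33 FPKM in WT P18, and Kif11 had 16.4 and 11.8 FPKM in KO P18, against 10.1 and 16.0 FPKM in WT P18. Kif2b, which was not tested, had 1.54 and 0.176 FPKM in KO P18, against 0.246 and 0.132 FPKM in WT P18 (252 and 31 counts in KO P18, against 38 and 20 counts in WT P18), so only KO replicate 1 stood out. Kif4, a chromosome-arm motor and the only X-linked kinesin of the table, ran opposite, with 3.38 and 6.88 FPKM in KO P18, against 5.78 and 4.37 FPKM in WT P18. On the opposite strand, Pdzd11 shares 15.1% of the exon bases of Kif4.

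Transport kinesins ran the other way, and 11 of 12 were lower in KO replicate 1 than in KO replicate 2 and lower in WT replicate 2 than in WT replicate 1, Kif16b being the exception. This was also the direction of most genes, 9111 of all 16702 tested. Kif5c had 2.90 and 6.76 FPKM in KO P18, against 6.46 and 2.79 FPKM in WT P18. Kif5b had 14.8 and 31.6 FPKM in KO P18, against 28.6 and 17.1 FPKM in WT P18. Kif21a had 14.6 and 32.2 FPKM in KO P18, against 35.5 and 17.5 FPKM in WT P18. The lower libraries of these 3 were KO replicate 1 and WT replicate 2 in every case. Kif1a had 4.42 and 11.02 FPKM in KO P18, against 8.66 and 5.55 FPKM in WT P18. Kif1c had 7.30 and 15.2 FPKM in KO P18, against 13.0 and 8.70 FPKM in WT P18. Kif26a, outside the classes, had 2.02 and 5.95 FPKM in KO P18, against 5.74 and 3.16 FPKM in WT P18. The low libraries were again KO replicate 1 and WT replicate 2. Kif13a had 1.80 and 3.72 FPKM in KO P18, against 4.19 and 2.36 FPKM in WT P18. Kif3c had 2.80 and 3.80 FPKM in KO P18, against 3.34 and 1.82 FPKM in WT P18. The pachytene sums given above were highest, and the Sertoli sums lowest, in KO P18 replicate 1 and WT P18 replicate 2. Among the P18 libraries, the Leydig, peritubular and stromal, endothelial and macrophage sums were also lowest in these 2. Leydig genes summed to 77.5 and 196 FPKM in KO P18, against 208 and 94.1 FPKM in WT P18. Red blood cell sums did not follow this order, at 158 and 161 FPKM in KO P18, against 312 and 237 FPKM in WT P18. The 5 proliferation genes summed to 180 and 196 FPKM in KO P18, against 175 and 213 FPKM in WT P18. The markers of multiciliated cells summed to 9.16 and 1.59 FPKM in KO P18, against 2.42 and 4.62 FPKM in WT P18, with Gmnc at 0.0934 FPKM or less and Mcidas at 0.113 FPKM or less in every library. The part of these cell types in the kinesin values was not tested.

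**Figure D4:**
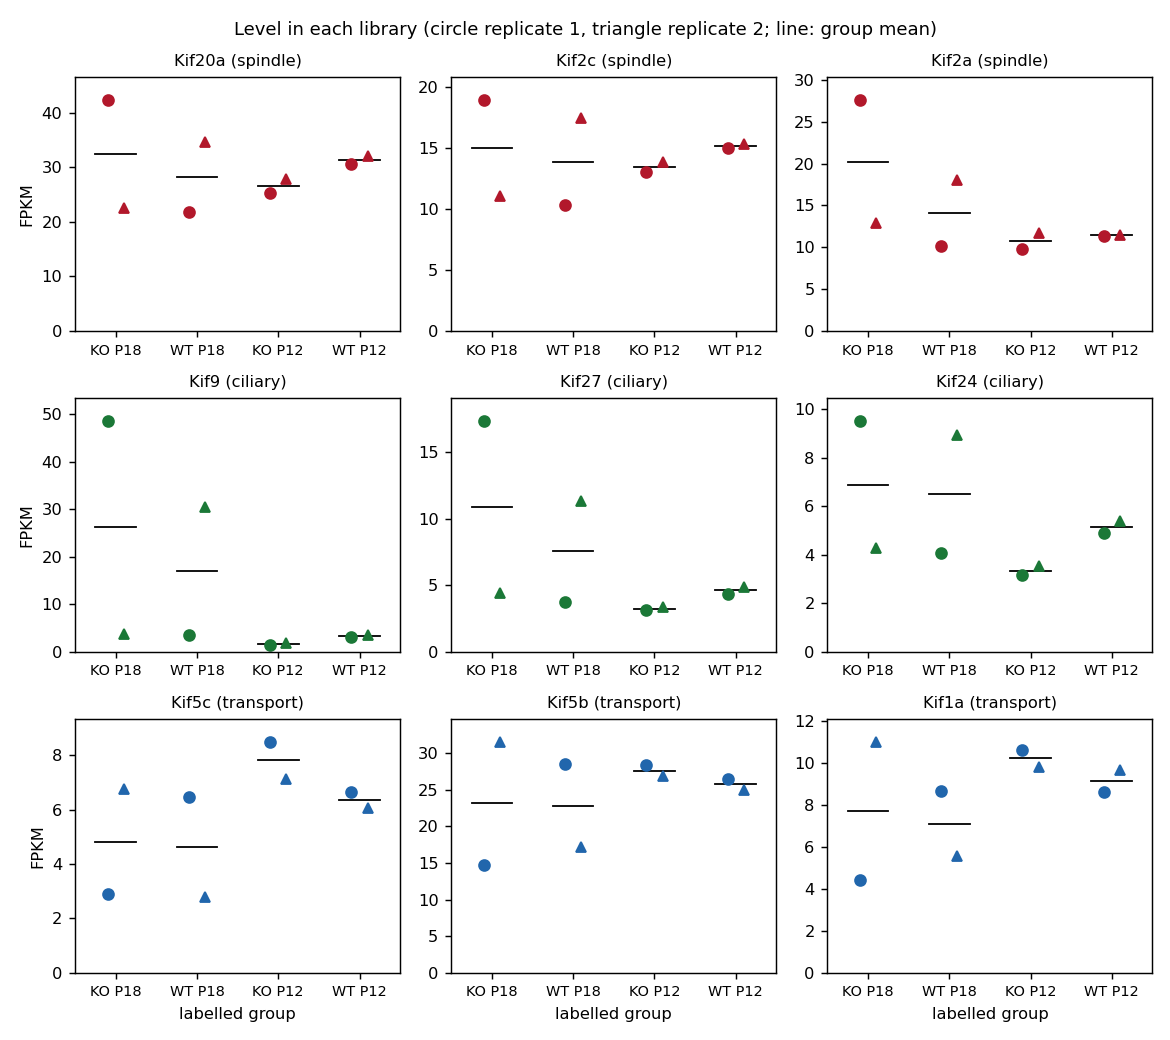
FPKM of 9 kinesins in each library, with spindle genes in the top row, ciliary genes in the middle and transport genes below; circles are replicate 1, triangles replicate 2 and lines group means (n = 2). At P18 the libraries of 1 label lie apart, Kif9 at 48.6 and 3.80 in KO and 3.65 and 30.6 in WT, while P12 libraries of a label lie close together.

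Without the 2 libraries that Alkbh5 contradicts, KO P18 replicate 2 and WT P18 replicate 2 remain, 1 library a group. They also differ in pachytene sum (152 FPKM in KO, against 1124 FPKM in WT) and in hepatocyte sum (208 against 3.16 FPKM). The part of these differences in the kinesin values was not tested. The fit assumes that each of the 2 libraries varies like the P12 libraries. In that fit edgeR called 22 of 34 kinesins, 9 higher and 13 lower in KO P18, where it called 38.1% of all genes. The lower ones were 7 ciliary kinesins (Kif9, Kif19a, Kif27, Kif6, Kif24, Kif3b and Kif3a) and 6 spindle kinesins (Kif11, Kif15, Kif20a, Kif20b, Kif2a and Kif2c). The higher ones were 8 transport kinesins and Kif4. The class medians turned with this choice: ciliary kinesins stood at -1.21, against 0.45 with all libraries as labelled, spindle kinesins at -0.43, against 0.25, and transport kinesins at 0.59, against 0.12, all as log2 of KO P18 over WT P18. Single libraries turned them as well. Without KO P18 replicate 1 the ciliary median was -0.71 and the spindle median -0.21, without WT P18 replicate 1 the ciliary median was -0.05, and without KO P18 replicate 2 the transport median was -0.21, as it was -0.08 without WT P18 replicate 2.

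The comparison of ages asks how kinesin transcripts differ between P18 and P12. The pachytene and diplotene sums given above did not set all P18 libraries apart. They were 141 FPKM in WT P18 replicate 1 and 152 FPKM in KO P18 replicate 2, near the 143 FPKM of WT P12 replicate 2. No kinesin passed in either genotype as labelled: edgeR called 0 of 34 in KO and 0 of 34 in WT, where 0% of all genes were called in each. At an unadjusted p under 0.05 there were 5 of 34 in KO (19% of all genes) and 3 of 34 in WT (6.48%). DESeq2 called 2 of 34 in KO (Kif9 and Kif19a, both higher, against 14.3% of all genes called) and 0 of 34 in WT (2.44% of all genes). limma called 0 of 34 in KO (0.186% of all genes) and 0 of 34 in WT (0%). Ciliary kinesins had the largest class medians of log2 fold change, 1.27 in KO and 0.65 in WT. Spindle kinesins had 0.34 in KO and -0.06 in WT, transport kinesins 0.07 in KO and -0.13 in WT, and all tested genes 0.02 in KO and 0.05 in WT. In WT the ciliary median was -0.26 without WT P18 replicate 2 and 1.01 without WT P18 replicate 1. In KO it was 0.35 without KO P18 replicate 1 and 1.82 without KO P18 replicate 2.

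Kif9 had a log2 fold change of 4.25 ± 1.56 (SE, n = 2 per group, edgeR adjusted p = 0.262) in KO and 2.56 ± 1.45 (adjusted p = 0.614) in WT. Both P18 libraries of each label lay above both P12 libraries of that label, where KO P12 had 1.53 and 1.903 FPKM and WT P12 3.06 and 3.44 FPKM. Kif19a rested on low values at P12, 0.270 and 0.301 FPKM in KO and 0.292 and 0.297 FPKM in WT, and its log2 fold changes were 3.93 ± 1.33 in KO and 2.71 ± 1.26 in WT. Kif3b was likewise above P12 in both P18 libraries of either label (1.27 ± 0.51 in KO and 0.65 ± 0.50 in WT). These 3 were the only kinesins of the 34 whose P18 libraries lay above their P12 libraries in both genotypes. Kif19a passed the filter only through KO P18 replicate 1 (6.41 FPKM) and WT P18 replicate 2 (2.75 FPKM). Its place among the 3 was thus favoured by the filter and is no separate support for a rise with age. On the lower side the P18 libraries lay below the P12 libraries in both genotypes for 5 kinesins. They were Kif4 (-0.59 ± 0.26 in KO and -0.71 ± 0.26 in WT), Kif7 (-0.52 ± 0.20 in KO and -0.53 ± 0.20 in WT), Kif21b, a relative of Kif21a (-0.54 ± 0.20 in KO and -0.52 ± 0.20 in WT), Kif23, the motor of centralspindlin (-0.15 in KO and -0.29 in WT), and Kif22 (0.09 in KO and -0.21 in WT), whose fold change on TMM-scaled counts in KO is above 0. In all, 9 of 34 kinesins were higher and 6 of 34 lower without overlap in KO (22.2% and 33.5% of all genes), and 3 of 34 and 10 of 34 in WT (16.2% and 31.3%). The share of all genes that separated in both genotypes at once was not counted, so the joint tallies have no background.

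Left without the contradicted libraries, each P18 group again has 1 library. edgeR then called 2 of 34 kinesins in KO, Kif9 (1.15) and Kif3b (0.35), both higher, against 10.8% of all genes. In WT it called 19 of 34, 12 higher and 7 lower, against 44.9% of all genes. The higher ones in WT were 7 ciliary kinesins, led by Kif9 (3.41), Kif19a (3.39) and Kif27 (1.47), and 5 spindle kinesins, led by Kif2a (0.84). The lower ones were 5 transport kinesins, led by Kif5c (-1.0), with Kif4 (-0.85) and Kif7 (-0.48). The difference of the age changes between genotypes was tested as an interaction and called 0 of 34 kinesins as labelled (0% of all genes), with 0 of 34 at an unadjusted p under 0.05 (0.958% of all genes), 0 of 34 by DESeq2 (0.269%) and 0 of 34 by limma (0.0419%). Without the contradicted libraries it called 9 of 34, against 13.8% of all genes. Of these, 7 had a lower age change in KO than in WT (Kif9 at -2.27, Kif19a at -2.40, Kif27, Kif3a, Kif3b, Kif20a and Kif2c), and Kif1a and Kif5b had the opposite sign.

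Genes that work with the kinesins were taken from 3 lists, and edgeR called 0 members of each in every comparison as labelled. Of 11 motors and subunits with other names, 10 had a log2 fold change below 0 at P12, against 7884 of all 16702 tested genes. The median of the 11 was -0.13. The lowest p belonged to Kifc5b, a minus-end motor of the kinesin-14 group whose near copies may share its reads, and Cenpe, the kinetochore kinesin. Kifc5b had 3.95 and 4.93 FPKM in KO P12, against 6.16 and 6.54 FPKM in WT P12 (-0.50 ± 0.13, edgeR adjusted p = 0.186), and Cenpe had 7.93 and 8.09 FPKM in KO P12, against 9.24 and 10.1 FPKM in WT P12 (-0.26 ± 0.08, adjusted p = 0.242). Of 16 spindle partners, 14 were below 0, with a median of -0.14. By p, Ect2, which acts in cytokinesis (-0.34 ± 0.09), and Cit, citron kinase, which binds Kif14 (-0.37 ± 0.10), came first. Of 22 intraflagellar transport genes, the cargo trains that Kif3a and Kif3b pull, 19 were below 0, with a median of -0.30, and 18 of 22 were lower in both KO libraries than in both WT libraries, where 24% of all genes were. Wdr35 had 5.41 and 5.96 FPKM in KO P12, against 7.94 and 10.04 FPKM in WT P12 (-0.65 ± 0.12, edgeR adjusted p = 0.109), and Ttc30a1 had 2.63 and 2.56 FPKM in KO P12, against 3.999 and 4.73 FPKM in WT P12 (-0.74 ± 0.14, adjusted p = 0.110). The intraflagellar transport genes also spread inside the P18 labels. Wdr35 had 37.0 and 9.24 FPKM in KO P18, against 9.52 and 32.0 FPKM in WT P18. Of the 22, 17 were over 2-fold higher in KO replicate 1 than in KO replicate 2 (16.5% of all genes). In WT, 15 of 22 were over 2-fold higher in replicate 2 than in replicate 1 (15% of all genes). The accessory subunit Kifap3, which links Kif3a and Kif3b to cargo, had 17.8 and 11.4 FPKM in KO P18, against 11.2 and 16.2 FPKM in WT P18.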

How the data were processed

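Whole-testis RNA-seq of 8 libraries was used, with poly(A) selection, dUTP marking of the second strand and paired reads, per the labels. Build GRCm38 and the tools StringTie 2.1.6, HISAT2 2.2.1 and cutadapt 1.9 are listed in the submitters' processing notes. The authors deposited 1 table with an FPKM value, scaled by transcript length and depth, and a whole-number count for each gene and library. Totals of the deposited counts differ between libraries. The counting tool and its use of strand are not given in the sources used here.

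Genes with at least 1 FPKM in at least 2 libraries were tested on the counts with TMM scaling and edgeR 4.0.16 (quasi-likelihood F-test, two-sided, R 4.3.3), with Benjamini-Hochberg adjustment over all genes and calls at an adjusted p under 0.05. The P12 comparison was fitted on its 4 libraries (common dispersion 0.0179, against 0.226 in the fit of all 8), which leaves 2 residual degrees of freedom. The others were fitted on all 8 with a mean per group, which leaves 4. SEs were derived from the F statistic, as the absolute log2 fold change over its root. The edgeR step was tested on simulated data with a dispersion near 0.0179 in every comparison. That check cannot speak to the wider spread of the 8-library fit. DESeq2 1.42.0, limma 3.58.1 with pseudocounts of 1 and 0.1, RLE scaling, other filters, other groups in the fit, a robust spread, a replicate block and left-out libraries were alternatives. The replicate block with crossed KO P18 numbers was chosen after seeing the data.

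The members, the classes and the gene lists were chosen with earlier results of these data known. Values in every library are given by rule for the 3 kinesins of highest mean FPKM in each of the 3 classes, the 5 higher and 5 lower with the lowest p at P12, and the 10 with the largest ratio between P18 libraries. All 38 kinesins are in GENCODE release M21, 30 with the same start and end. Promoters and start sites are from RefSeq on GRCm38.p6. 14 kinesins share exon bases with another gene. FPKM compares genes per length.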

Additional observations from a re-analysis of the deposited data

Results flagged for a closer look

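Kif16b was the only tested kinesin whose genotype groups separated in opposite directions at the 2 ages. Of all tested genes, 24% were lower in KO without overlap at P12, and 3.38% were higher in KO without overlap at P18. The share that did both was not counted, so this 1 gene has no background. Both KO P12 libraries lay below both WT P12 libraries (4.24 and 4.57 FPKM, against 4.81 and 4.83 FPKM), and both libraries labelled KO P18 lay above both labelled WT P18 (5.82 and 4.90 FPKM, against 4.69 and 4.83 FPKM). The log2 fold changes were -0.12 at P12 and 0.29 at P18. The interaction between genotype and age was 0.39 on the log2 scale and did not pass in edgeR (adjusted p = 1). The library labelled KO P18 replicate 1, whose Alkbh5 level goes against its label, holds the highest value.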

How the results depend on the processing

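Each P12 median kept its sign under every alternative run, and so did the fold changes of Alkbh5 and the 10 kinesins named for P12. For P12 the medians were -0.20 to -0.091 for spindle, -0.15 to -0.11 for ciliary and 0.053 to 0.12 for transport kinesins when 1 library was left out. limma on log2(FPKM + 1) gave -0.12 for ciliary and 0.074 for transport kinesins. The number of kinesins called at P12 was 0, but 4 with DESeq2 (659 of all genes) and 2 with the replicate block (Kif24 and Kif9, with 439 of all genes, against 9). The replicate block called 0 kinesins in the other 4 comparisons. Same-numbered libraries share only a number in the labels, and their deviations correlated at -0.05 across genotypes at P12 and at -0.94 at P18. With the KO P18 numbers crossed, 0 kinesins and 0 genes in all were called at P18. Alkbh5 at P12 lost its call in the fit of all 8 libraries, without a filter and with limma.

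P18 values turned with single libraries. Leaving out 1 library gave -0.21 to 0.62 for spindle, -0.71 to 1.02 for ciliary and -0.21 to 0.37 for transport kinesins between the P18 labels. The lowest spindle and ciliary values came without KO P18 replicate 1, the highest without WT P18 replicate 2. For P18 over P12 in KO the ranges were -0.14 to 0.74 (spindle), 0.35 to 1.82 (ciliary) and -0.33 to 0.16 (transport), and in WT -0.43 to 0.26 (spindle), -0.26 to 1.01 (ciliary) and -0.28 to 0.10 (transport). No leave-one-out fit called a kinesin. Without both contradicted libraries the calls were 22 between the P18 labels, 2 for age in KO, 19 for age in WT and 9 for the interaction, where P18 has 1 library a group. The medians were then -0.43 (spindle), -1.21 (ciliary) and 0.59 (transport) between the P18 labels, 0.26 for spindle kinesins with age in WT, and -0.14 (spindle) and 0.35 (ciliary) with age in KO. With age in KO, DESeq2 called 2, and limma gave 0.082 with a pseudocount of 1 and 0.10 with 0.1 for spindle and 0.78 with 1 for ciliary kinesins. The cause of these shifts was not tested. Kif12, Kif26b, Kif28 and Kif2b fell below the FPKM filter. With all 38 kinesins tested without that filter, or 37 with a filter on counts, 0 were called in each comparison.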
